A study of Mus musculus with 12 samples.

Results

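The 46 genes described here encode the proteins that copy the genome in S phase. They were taken by gene symbol from an RNA-Seq table of 36186 rows, each symbol matched a row, and all 46 passed the expression filter of at least 5 NRPKM in at least 3 libraries, as did 10936 rows in total. NRPKM is a normalised count of reads per kilobase of transcript and depth of the library, so that levels can be compared between genes as well as between libraries. The 12 libraries were made from chondrocytes of the mouse forelimb zeugopod, the segment that holds the radius and ulna, at E15.5, cut out by laser capture microdissection (LCM). The embryos were of a mixed 129/CD-1 background. There were 3 libraries each of WT resting, WT proliferative and WT hypertrophic chondrocytes and 3 of *aadd* mutants, which are homozygous for frameshift mutations in all of *Hoxa9*, *Hoxa10*, *Hoxa11*, *Hoxd9*, *Hoxd10* and *Hoxd11*. The sample labels spell the third WT compartment hyperproliferative, and they give the *aadd* libraries as resting. Compartments were not separated in *aadd*, where each library was made from all zeugopod chondrocytes. Some perichondrium came with the chondrocytes in all groups. The labels do not tie libraries to embryos, so *P* values measure the spread between these libraries.

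DNA replication proceeds in fixed steps. In G1 the origin recognition complex, Cdc6 and Cdt1 load the ring of Mcm2 to Mcm7 onto origins. The kinase Cdc7, Mcm10, Cdc45 and the GINS complex then turn the ring into a moving helicase. Primase and the α, δ and ε polymerases make the new strands on the Pcna clamp, which Rfc loads, while Rpa covers single strands and Fen1 and Lig1 finish the lagging strand. Rrm1, Rrm2, Tyms and Tk1 supply nucleotides, the Chaf1 subunits put down nucleosomes, and Uhrf1 and Dnmt1 copy DNA methylation. In the growth plate, resting chondrocytes divide slowly, flat proliferative chondrocytes divide in columns, and cells that enlarge to become hypertrophic leave the cell cycle. Many genes of this set are known targets of E2F transcription factors, which the Rb family of pocket proteins hold in check. The comparisons address whether transcripts of the replication machinery differ between compartments that differ in division, and between the mutant and each of them.

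The promoters of the set were searched for short strings of sequence. RefSeq promoter windows on GRCm38.p6, the build to which the deposited reads were aligned under its mm10 name, ran from 250 bases before to 50 bases after each start and were found for 38 of the 46 genes, in 48 windows. The E2F-type string TTTNNCGC, read on both strands (GCGNNAAA on the other), occurred in 17 of these windows (35.4%), against 5.17% of all 32851 windows. The 31 other replication genes of the neighbouring list used here, such as checkpoint and accessory factors, held it in 10 of 29 windows (34.5%), and the 17 mitosis genes in 1 of 16 (6.25%). CCAAT, or ATTGG on the other strand, was in 60.4% of member windows, 37.9% of other replication windows, 87.5% of mitosis windows and 37.4% of all windows. TTTGAA, or TTCAAA, the core of the cell cycle homology region, was in 16.7%, 13.8%, 75.0% and 17.9% in the same order. A match is a string of letters and was not tested as a binding site. By gene, 16 of the 38 held the E2F-type string, while *Mcm2*, *Pcna* and *Prim1*, whose levels are given below, held none. The 170 bases that end just before the start are printed for 5 of the genes that held it and whose levels are given below. They run 5′ to 3′ on the strand of the gene, with matches to the E2F-type string in capitals. They lie at chr8:75109339-75109508 (plus strand), chr1:128359706-128359875 (minus), chr5:138171884-138172053 (minus), chrX:93632156-93632325 (minus) and chr5:151651209-151651378 (minus).
Mcm5: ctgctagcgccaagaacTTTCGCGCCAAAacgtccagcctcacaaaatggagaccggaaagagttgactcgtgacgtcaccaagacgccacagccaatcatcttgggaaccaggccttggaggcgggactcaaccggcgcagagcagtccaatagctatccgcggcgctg
Mcm6: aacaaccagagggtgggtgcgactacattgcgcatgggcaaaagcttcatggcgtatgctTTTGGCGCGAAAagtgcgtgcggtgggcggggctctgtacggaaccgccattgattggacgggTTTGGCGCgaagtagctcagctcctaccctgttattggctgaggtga
Mcm7: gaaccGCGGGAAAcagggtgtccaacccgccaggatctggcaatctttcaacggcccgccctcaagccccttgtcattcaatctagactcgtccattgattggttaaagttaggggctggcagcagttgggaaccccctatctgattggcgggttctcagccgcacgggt
Pola1: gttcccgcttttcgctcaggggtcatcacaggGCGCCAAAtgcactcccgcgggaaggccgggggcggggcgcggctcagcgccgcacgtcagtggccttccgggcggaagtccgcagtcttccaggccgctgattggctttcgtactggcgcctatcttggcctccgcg
Rfc3: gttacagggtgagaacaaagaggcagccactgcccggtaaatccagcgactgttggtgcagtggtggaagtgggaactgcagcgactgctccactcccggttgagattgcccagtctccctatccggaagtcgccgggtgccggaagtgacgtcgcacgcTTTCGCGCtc
In *Mcm5* and *Mcm6* a match on one strand overlaps one on the other. The matches begin 153 and 149 bases before the start in *Mcm5*, 110, 106 and 47 in *Mcm6*, 165 in *Mcm7*, 138 in *Pola1* and 10 in *Rfc3*, counted from the first base of the match.

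Depth was low. Judged from the smallest steps of the values, the counted reads per library came to 1.89e+06 to 3.24e+06, and 1 read on a transcript of 1 kb was worth 0.309 to 0.53 NRPKM. A member had a median of 112 estimated reads in a library, with a minimum of 1.58 for *Gmnn* in WT proliferative replicate 3. The summed NRPKM of 10 hypertrophic chondrocyte markers was 87.2 to 93.7 in WT resting, 641 to 934 in WT proliferative, 1785 to 3868 in WT hypertrophic and 60.2 to 73.7 in *aadd*. The mutated genes carry frameshifts and were still transcribed, *Hoxd11* at 25.1 to 35.4 NRPKM in *aadd* against at most 7.31 in the 9 WT libraries, so a loss of reads cannot serve to check the labels. The 3 hypertrophic libraries stood apart from each other. Of all 10 osteoclast markers, none of them at 0 in the group, the summed NRPKM was 70.3, 1308 and 963 in hypertrophic replicates 1, 2 and 3, against no more than 70.4 in any of the 9 other libraries. The 10 endothelial markers summed to 24.4, 324 and 227, and the 9 of 10 macrophage markers found to 24.3, 285 and 228. The 10 cartilage matrix markers ran the other way, at 3005, 677 and 965. Hypertrophic replicate 1 is therefore given apart from replicates 2 and 3 wherever a result rests on that group.

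All 46 replication genes were read in every library, and 36 of them reached 5 NRPKM in all 12. *Pcna*, the sliding clamp, had the highest level of the set in each library. Its NRPKM was 94.7, 61.04 and 59.6 in WT resting, 80.95, 70.02 and 73.7 in WT proliferative, 65.3, 103 and 78.9 in WT hypertrophic and 77.5, 69.4 and 96.7 in *aadd*. The values of all 4 groups overlapped. The rows of the pseudogenes *Pcna-ps1*, *Pcna-ps2* and *Tyms-ps* are counted separately in the table, and reads shared with them were removed with the multi-aligned reads. Next in the set came *Gins2*, *Tyms*, *Tk1* or *Uhrf1*, depending on the library. The lowest were *Gins3*, *Gmnn*, *Fen1*, *Mcm10* and *Cdc6*, each the lowest member of at least 1 library. Per gene, the highest library was a median of 2.52 times the lowest.

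The plainest pattern in the set was by library and not by group. On the log2(NRPKM + 0.1) scale, with each gene's mean over the 12 libraries subtracted, the median of the 46 genes was 0.46, 0.04 and -0.01 in WT resting replicates 1, 2 and 3, 0.16, -0.09 and -0.35 in WT proliferative, -0.59, 0.29 and -0.17 in WT hypertrophic and 0.27, -0.08 and 0.20 in *aadd*. Over all 10936 genes tested the same median stayed between -0.10 and 0.10. All 46 genes were above their own mean in WT resting replicate 1. Hypertrophic replicate 1 held the lowest value of the 12 libraries for 26 genes (56.5%), against 8.3% of all genes tested, and WT resting replicate 1 the highest for 18 (39.1%), against 8.8%. These 2 libraries, with proliferative replicate 3 (lowest for 11 genes, 23.9% against 13.4% of all genes) and hypertrophic replicate 2 (highest for 12, 26.1% against 18.8%), form the blue and red columns of the heat map.

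**Figure D1:**
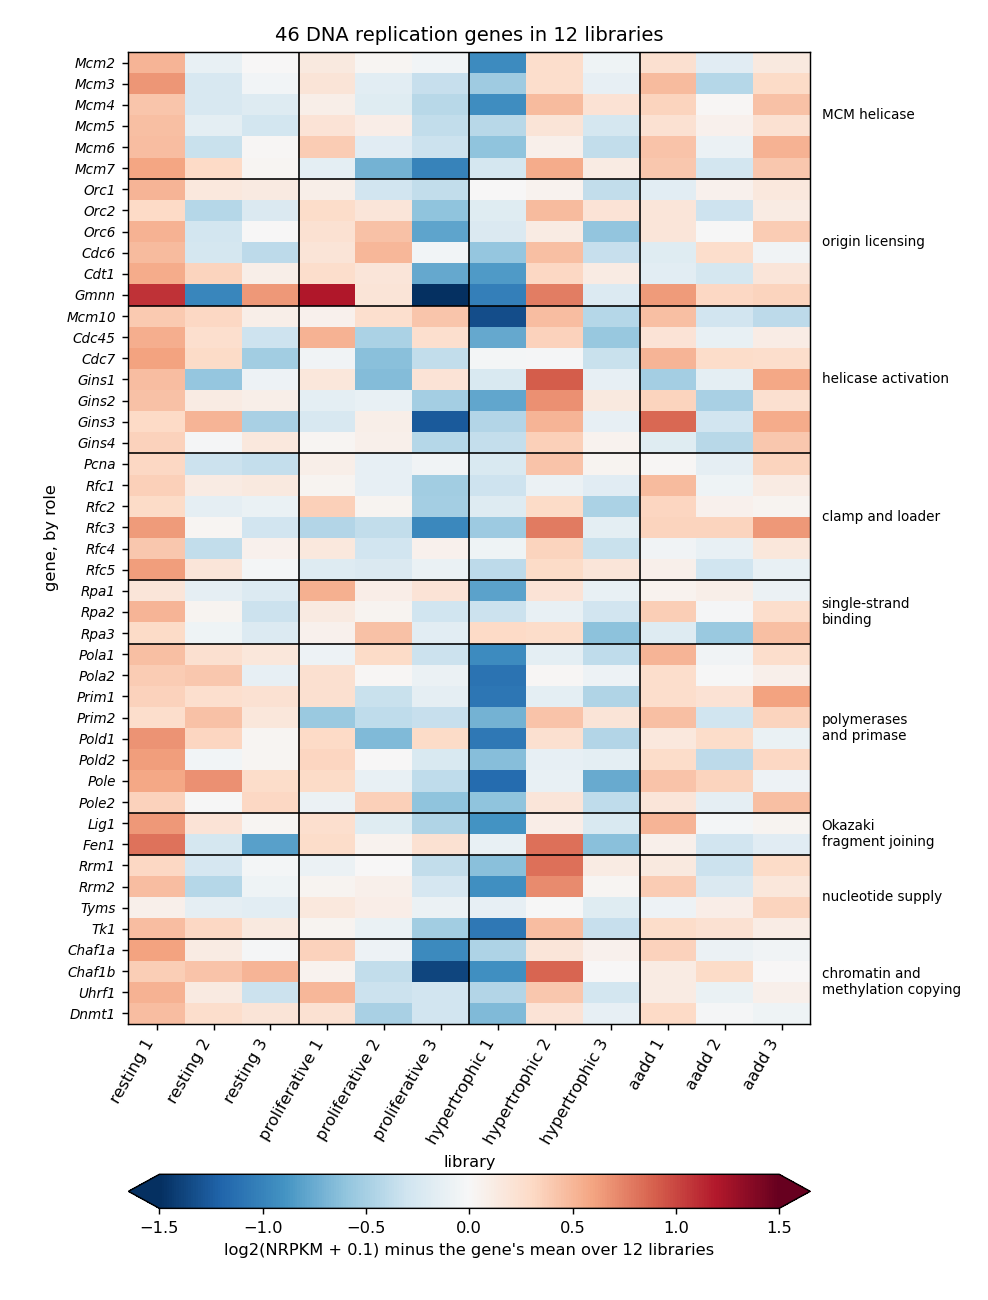
Heat map of the 46 replication genes (rows, by role) in the 12 libraries (columns), coloured by log2(NRPKM + 0.1) minus the gene's mean over the 12 libraries, with the scale ending at 1.5 either way. WT resting replicate 1 is red in nearly every row and hypertrophic replicate 1 blue in nearly every row, with a median of 0.46 and -0.59.

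Within the hypertrophic group the order of libraries was nearly the same for every gene. Replicate 2 was the highest of the 3 for 45 of 46 genes (97.8%), against 39.7% of all genes tested, and replicate 1 the lowest for 38 (82.6%), against 44.3%. Compared with the WT proliferative mean, replicate 1 had a median log2 difference of -0.42 with 40 genes below, replicate 2 one of 0.34 with 38 genes above, and replicate 3 one of -0.12 with 27 below. Over all genes tested the same medians were 0.03, 0.11 and 0.02. Replicate 1 was below all 3 proliferative libraries for 30 genes, while replicate 2 was above all 3 for 22. Shares over all genes were not computed for these counts against the proliferative libraries. Read alone, replicates 1 and 2 would give opposite answers on whether replication transcripts are lower in hypertrophic than in proliferative chondrocytes. The median SD of a member on the log2 scale was 0.49 within WT hypertrophic, against 0.32 in WT resting, 0.29 in WT proliferative and 0.22 in *aadd*. For all genes tested it was 0.31, 0.24, 0.28 and 0.25 in the same order, so that members varied more than other genes by median in WT hypertrophic and WT resting, about as much in WT proliferative and less in *aadd*. Counting error alone would give the members 0.12 to 0.16.

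Several other measures also differed between the 3 hypertrophic libraries. Replicate 1, with the lowest replication transcripts, had 264 NRPKM of *Col10a1*, the collagen that defines hypertrophic cartilage, against 166 and 221 in replicates 2 and 3, and 56.3 NRPKM of *Ihh*, the hedgehog ligand of prehypertrophic cells, against 9.54 and 15.3. The summed NRPKM of the 10 hypertrophic chondrocyte markers was lowest in replicate 1, at 1785, 3532 and 3868 in replicates 1, 2 and 3. Single markers were split, and the sum was drawn largely from *Spp1* (24.1, 1083 and 979) and *Mmp13* (3.05, 735 and 661). Replicate 1 was also the lowest for *Ibsp*, *Alpl* and *Vegfa*. It was the highest for *Mef2c* (112, 66.8 and 76.8) and *Panx3* (344, 235 and 221), as for *Col10a1* and *Ihh*, and *Sp7* was lowest in replicate 2. The 10 osteoblast markers summed to 962, 1445 and 2130.1. Replicate 1 had 10.3 NRPKM of the osteoclast protease gene *Mmp9*, against 422 and 378. Fewer cells of a type and less RNA per cell cannot be told apart in such captured tissue, and the part of other cell types in the order was not tested. The median deviation of the 17 mitosis genes followed the same libraries, at -0.71, 0.28 and -0.35 in the hypertrophic replicates and 0.32 in WT resting replicate 1. Depth moved with the pattern too. WT proliferative replicate 3, the lowest of its group, had the fewest reads of all 12 libraries and the highest sum of the 10 skeletal muscle markers, 99.6 NRPKM against at most 52.05 elsewhere. The deepest library had the highest replication median in 3 of the 4 groups, and the shallowest had the lowest in 3 of 4. The part of depth and of muscle was not tested.

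**Figure D2:**
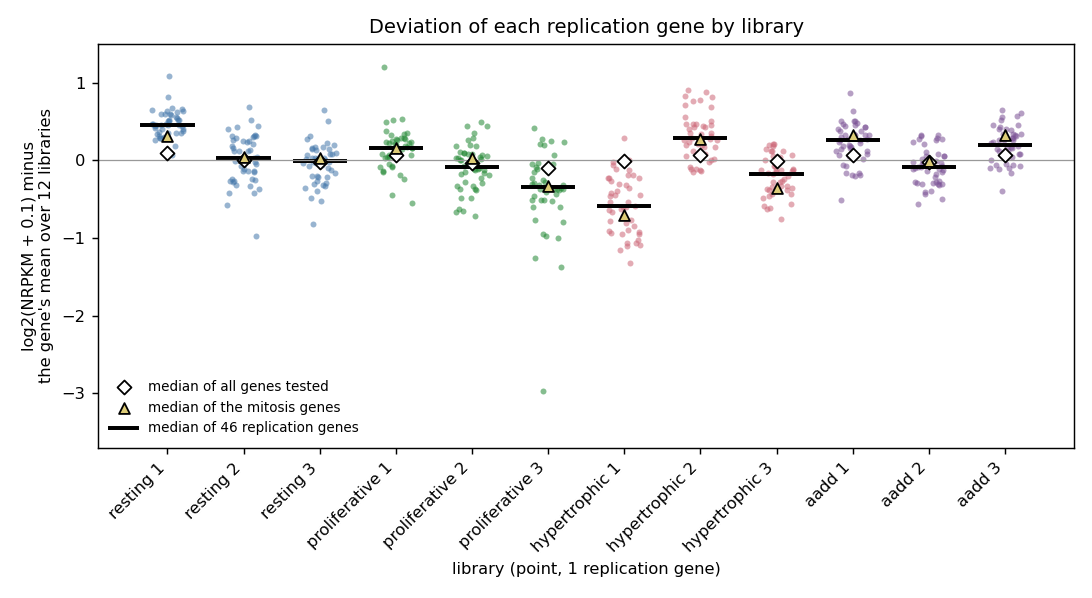
Deviation of each replication gene (point) from its own mean over the 12 libraries, log2 scale, by library, with the median of the 46 genes (bar), of all genes tested (diamond) and of the 17 mitosis genes (triangle). The bars run from -0.59 in hypertrophic replicate 1 to 0.46 in WT resting replicate 1 while the diamonds stay within 0.10 of 0, and the triangles follow the bars.

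In the ring of the MCM helicase 1 subunit, *Mcm7*, parted from the other 5 in WT proliferative. *Mcm2* was at 38.5, 24.96 and 27.1 NRPKM in WT resting, 30.1, 27.7 and 26.4 in WT proliferative, 14.00, 32.4 and 25.8 in WT hypertrophic and 31.99, 24.1 and 29.9 in *aadd*. *Mcm3* was at 43.9, 23.5 and 27.05, 31.8, 24.9 and 21.8, 19.2, 33.3 and 25.5 and 38.7, 20.6 and 34.1 in the same order, and *Mcm4* at 34.7, 22.1 and 22.7, 27.6, 22.9 and 19.5, 13.6, 36.2 and 30.2 and 32.8, 26.3 and 35.2. In all 3 genes the groups overlapped, and the lowest library was hypertrophic replicate 1. The levels of *Mcm5* were 36.3, 24.01 and 22.1 in WT resting, 30.8, 28.5 and 20.5 in WT proliferative, 19.9, 30.6 and 22.2 in WT hypertrophic and 31.1, 27.8 and 31.1 in *aadd*. Those of *Mcm6* were 32.6, 18.7 and 24.04, 30.8, 21.1 and 18.9, 15.6, 24.99 and 18.3 and 31.9, 22.3 and 33.95. The same library was the lowest of the 12 for both, and again no pair of groups separated.

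*Mcm7* (Entrez ID 17220, chromosome 5, 138164589 to 138171862) was at 38.5, 31.3 and 26.03 NRPKM in WT resting, 23.1, 15.53 and 12.7 in WT proliferative, 21.2, 37.5 and 27.7 in WT hypertrophic and 33.8, 20.96 and 33.7 in *aadd*. All 3 proliferative values lay below all 3 resting values, with a mean of 17.1 ± 5.35 against 31.95 ± 6.26 (SD, n = 3; log2 FC -0.92, SE 0.27, 95% interval -1.57 to -0.27, adjusted *P* = 0.194, limma). Since the 6 subunits form the ring together, *Mcm7* was also divided by the mean of *Mcm2* to *Mcm6* in the same library, which removes a shift that all subunits share. This ratio was chosen with 9 others after the values had been seen and has no test. It was 1.03, 1.38 and 1.06 in WT resting, 0.764, 0.621 and 0.594 in WT proliferative, 1.29, 1.19 and 1.13 in WT hypertrophic and 1.02, 0.865 and 1.03 in *aadd*. The 3 proliferative libraries lay below the 9 others, and *Mcm7* was the lowest of the 6 genes in each of them and in none of the others. The span of *Mcm7* holds the rows of 3 microRNA genes, *Mir106b*, *Mir25* and *Mir93*, and whether strand was used in counting is not stated.

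**Figure D3:**
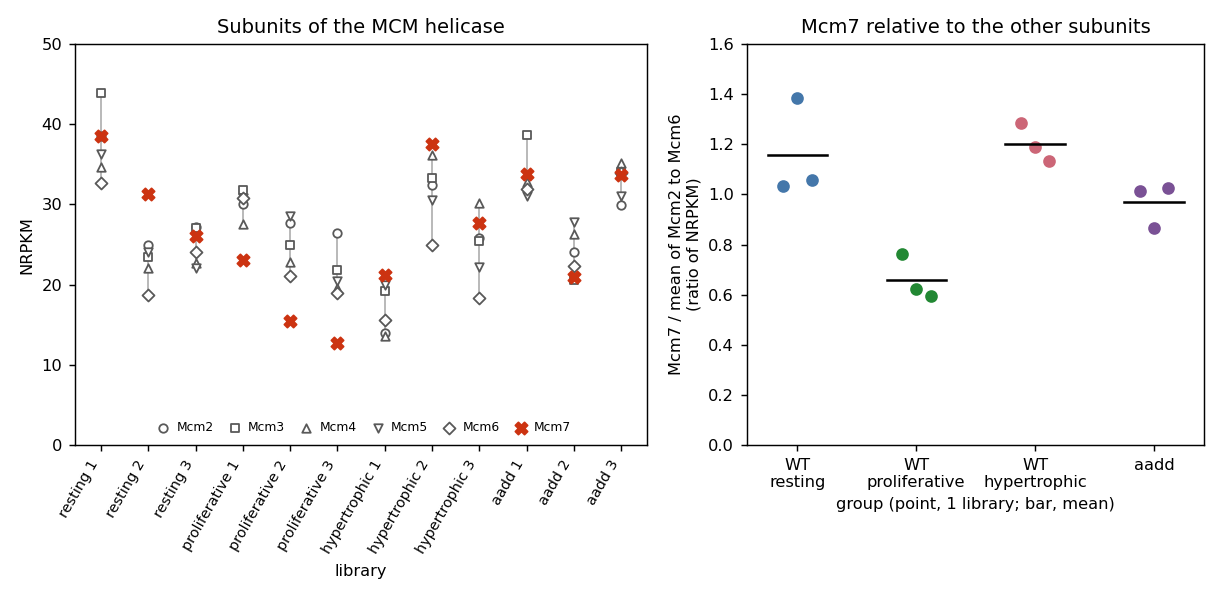
Left, NRPKM of *Mcm2* to *Mcm7* in each library, with *Mcm7* as a cross and a line joining the lowest and highest of the other 5. Right, *Mcm7* divided by the mean of *Mcm2* to *Mcm6* in the same library, by group, with the group mean as a bar. The 3 proliferative ratios of 0.594 to 0.764 lie below every other library, the lowest of which is 0.865 in *aadd*.

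For most of the set the mean was lower, not higher, in the compartment named for division. In WT proliferative against WT resting chondrocytes 39 of the 46 genes had the lower mean in WT proliferative and 7 the higher, with a median log2 FC of -0.20 (all genes tested, -0.06). With median-of-ratios scaling 35 were lower, and with quantile normalization 36, with medians of -0.15 and -0.18. No member met both criteria between WT compartments, an unadjusted *P* of up to 0.05 and an FC of at least 2, which 5.53% of all genes did. None had an adjusted *P* below 0.05, which 0.622% did (limma with Benjamini-Hochberg adjustment). At an unadjusted *P* of up to 0.05 there were 7, all lower in WT proliferative, or 15.2% of the set against 17.1% of all genes. The libraries of both groups did not overlap for 9 members, all lower, against 24.0% of all genes. The 7 at that *P* were *Mcm7*, *Prim2* at -0.72 (SE 0.16, adjusted *P* = 0.122), *Chaf1b* at -0.999 (SE 0.36, adjusted *P* = 0.254), *Rfc3*, *Pole*, *Tk1* and *Gins2*, the last 4 with log2 FC of -0.72, -0.58, -0.50 and -0.48. In *Pole* the libraries overlapped. The other 3 without overlap were *Orc1*, *Rfc1* and *Rfc5*, with log2 FC of -0.46, -0.41 and -0.43. *Chaf1b*, *Tk1*, *Orc1*, *Rfc1* and *Rfc5* fall outside the rule for called genes and are named after their values were seen. With the replicate number as a block, which pairs these libraries, 11 members had an unadjusted *P* of up to 0.05 (20.2% of all genes) and still none met both criteria. For 31 of 46 genes the 95% interval lay within a 2-fold difference either way.

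The size of this difference rested on single libraries. Without WT resting replicate 1 the median log2 FC was -0.05 and 24 genes had the lower mean, and without WT proliferative replicate 3 it was -0.10. It was -0.33 without WT resting replicate 2 or WT proliferative replicate 1 and -0.31 without WT resting replicate 3. Members that met both criteria then numbered 1 without WT resting replicate 3 (*Mcm7*), 2 without WT proliferative replicate 1 (*Mcm7* and *Chaf1b*) and 1 without WT proliferative replicate 2 (*Chaf1b*), where 4.97%, 7.4% and 5.03% of all genes met them.

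The subunits of primase differed in which group was low. *Prim2*, the large primase subunit (Entrez ID 19076, chromosome 1, 33453811 to 33669758), was at 8.69, 9.83 and 8.12 NRPKM in WT resting, 4.88, 5.49 and 5.63 in WT proliferative, 4.35, 9.73 and 8.26 in WT hypertrophic and 9.89, 5.82 and 9.13 in *aadd*. The proliferative values lay below all 3 of WT resting and all 3 of *aadd*, but the lowest library rested on 20.1 estimated reads and the median one on 43.8, and a predicted gene row (*Gm17813*) overlaps the locus. *Prim1*, the catalytic subunit (Entrez ID 19075, chromosome 10, 128015215 to 128030030), was at 33.9, 31.6 and 31.1 in WT resting, 31.4, 21.1 and 24.2 in WT proliferative, 12.4, 24.1 and 19.3 in WT hypertrophic and 31.9, 30.9 and 40.4 in *aadd*. Here the low group was WT hypertrophic, below WT resting and *aadd* in every library, while the proliferative values overlapped the resting ones. The ratio of *Prim1* to *Prim2*, one of the 10 ratios chosen after the values had been seen, was 2.86, 2.48 and 2.34 in WT hypertrophic, below all 9 other libraries (3.90, 3.21 and 3.83 in WT resting, 6.44, 3.84 and 4.31 in WT proliferative and 3.23, 5.31 and 4.43 in *aadd*). In the other 8 ratios examined no group lay apart from all others.

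Between hypertrophic and proliferative chondrocytes no difference in the set was detectable. The mean in WT hypertrophic was higher for 18 genes and lower for 28, with a median log2 FC of -0.05 (all genes tested, 0.04). No member met both criteria (9.67% of all genes did), none had an unadjusted *P* of up to 0.05 (19.3%), and for none did the libraries not overlap (24.2%). With an adjusted *P* below 0.05 there was no member and no gene at all (0.0%; limma). The intervals were wide, and for only 19 of 46 genes did they lie within a 2-fold difference. Without hypertrophic replicate 1 the median was 0.07, 28 genes had the higher mean and 1 member had an adjusted *P* below 0.05 (*Prim2*, log2 FC 0.74, adjusted *P* = 0.0459, limma), as 17.4% of all genes then had. Without hypertrophic replicate 2 it was -0.26, and 1 member met both criteria (*Mcm10*, -1.12, adjusted *P* = 0.403), against 6.45% of all genes. It was 0.10 without proliferative replicate 1 and -0.22 without proliferative replicate 3.

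Against WT resting, 41 of 46 genes had the lower mean in WT hypertrophic, with a median log2 FC of -0.28 (all genes, -0.02), and the genes of the polymerases and primase were the lowest role. All 8 of that role had the lower mean, with a median of -0.69. The next lowest median was -0.38, in chromatin and methylation copying. In the MCM ring the median was -0.21, in origin licensing -0.34, in helicase activation -0.20 and in the clamp and its loader -0.12. It was -0.26 in Okazaki fragment joining, -0.19 in single-strand binding and -0.04 in nucleotide supply. *Pole*, the catalytic subunit of the leading-strand polymerase ε (Entrez ID 18973, chromosome 5, 110286319 to 110337453), was the only member that met both criteria (2.17% of the set, 13.0% of all genes). Its NRPKM was 20.1, 21.7 and 16.2 in WT resting, 16.4, 12.4 and 10.3 in WT proliferative, 5.96, 12.4 and 7.92 in WT hypertrophic and 18.2, 16.9 and 12.7 in *aadd*. The hypertrophic values lay below all 3 resting and all 3 *aadd* values (log2 FC -1.19, SE 0.30, 95% interval -1.91 to -0.47, adjusted *P* = 0.0693, limma). *Pole* met both criteria under 11 of 12 alternatives for this comparison, and without hypertrophic replicate 1 it was -0.95 with an adjusted *P* of 0.0492, a change short of 2-fold.

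*Pola1*, the catalytic subunit of polymerase α, which extends the primers (Entrez ID 18968, chromosome X, 93304766 to 93632155), was at 13.5, 11.6 and 11.1 NRPKM in WT resting, 9.34, 12.1 and 7.88 in WT proliferative, 5.07, 8.88 and 7.53 in WT hypertrophic and 14.1, 9.50 and 11.9 in *aadd*. As in *Prim1* and *Pole*, every hypertrophic value lay below every resting value. The log2 FC was -0.78 (SE 0.25, adjusted *P* = 0.111) for *Pola1* and -0.84 (SE 0.27, adjusted *P* = 0.113) for *Prim1*, each below the 2-fold criterion. With *Rfc1*, the large subunit of the clamp loader (log2 FC -0.40, named after its value was seen), 4 members had an unadjusted *P* of up to 0.05, or 8.7% of the set against 26.4% of all genes. None had an adjusted *P* below 0.05, which 6.36% of all genes had. The libraries did not overlap for 6 members, all lower, against 32.0% of all genes. An interval within 2-fold either way held for 18 of 46 genes.

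The lower hypertrophic values were drawn in part from replicate 1. Without it the median log2 FC of the set against WT resting was -0.05, with 17 genes higher and 29 lower, and no member met both criteria, which 19.2% of all genes then did. The polymerase and primase genes were still lower for 7 of 8, with a median of -0.39, and *Pola1* and *Prim1* were at -0.55 and -0.57 with adjusted *P* of 0.0736 and 0.0624. Without hypertrophic replicate 2 the median was -0.45 and 5 members met both criteria (*Mcm10*, *Pold1*, *Pole*, *Prim1* and *Tk1*), which is 10.9% of the set against 11.1% of all genes. Without WT resting replicate 1 it was -0.08.

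**Figure D4:**
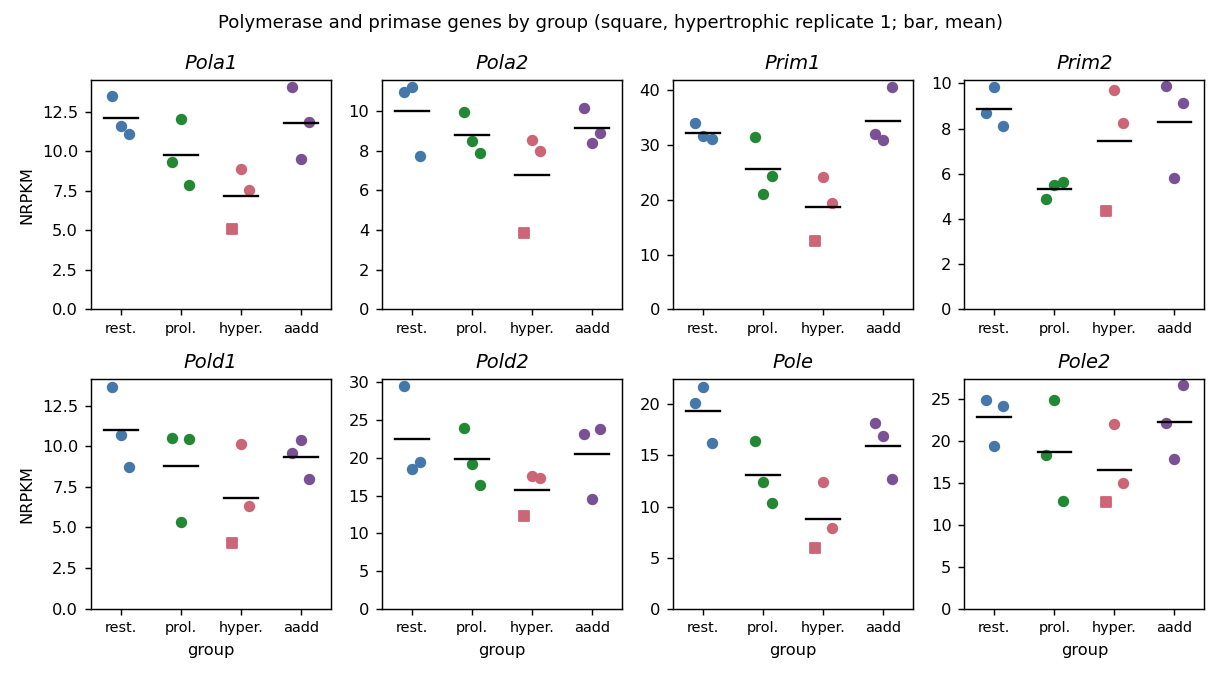
NRPKM of the 8 polymerase and primase genes by group (rest., WT resting; prol., WT proliferative; hyper., WT hypertrophic), each point a library, bars the group means, with hypertrophic replicate 1 as a square. For *Pola1*, *Prim1* and *Pole* all 3 hypertrophic points lie below all 3 resting points, while for *Prim2* the low group is WT proliferative.

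No difference from WT resting was detectable in *aadd*, and for nearly all of the set a difference of more than 2-fold lay outside the interval. The mean was higher in *aadd* for 19 genes and lower for 27, with a median log2 FC of -0.04 (all genes tested, 0.01) and a range from -0.41 to 0.31. No member met both criteria, here with an FC of at least 1.5 (6.56% of all genes did), none had an unadjusted *P* of up to 0.05 (9.58%) and none an adjusted *P* below 0.05 (0.119%; limma). The libraries did not overlap for 1 member (*Chaf1b*, lower in *aadd*), against 15.4% of all genes. By their median half-width the intervals were the narrowest of the 6 comparisons, and for 44 of 46 genes they lay within a 2-fold difference either way. The 2 others were *Gmnn*, with a median of 23.6 estimated reads in a library, and *Gins3*, one of the lowest members by NRPKM. The sign of the median rested on the libraries, from -0.13 without *aadd* replicate 1 to 0.13 without WT resting replicate 1. Without *aadd* replicate 1, 1 member met both criteria (*Mcm10*, log2 FC -0.61, adjusted *P* = 0.424), against 8.08% of all genes.

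**Figure D5:**
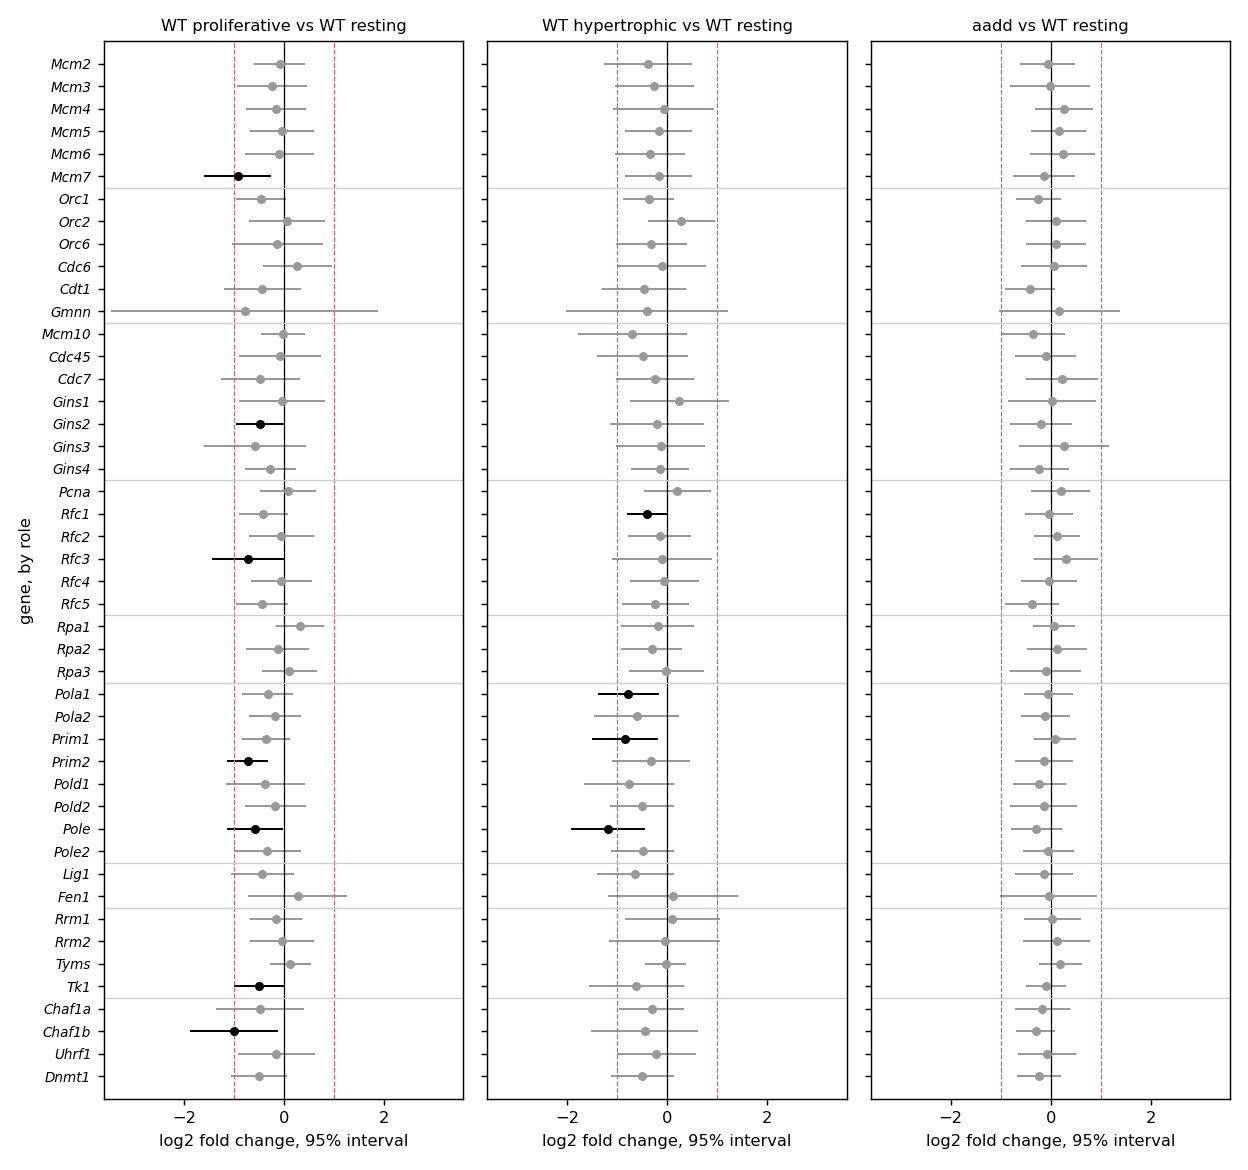
Log2 FC of the 46 replication genes with 95% intervals in WT proliferative, WT hypertrophic and *aadd*, each against WT resting, with unadjusted *P* of up to 0.05 in black and dashed lines at a 2-fold difference. The *aadd* intervals are the narrowest and 44 of 46 stay between the dashed lines, against 31 in WT proliferative and 18 in WT hypertrophic.

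Compared with WT proliferative chondrocytes, 40 of 46 genes had the higher mean in *aadd*, with a median log2 FC of 0.20 (all genes, 0.05). The number was 34 with median-of-ratios scaling and 31 with quantile normalization, with medians of 0.14 and 0.17. The comparison shares its proliferative libraries with the comparison of WT proliferative and WT resting, and its *aadd* libraries with that of *aadd* and WT resting. *Rfc3*, a small subunit of the clamp loader (Entrez ID 69263, chromosome 5, 151642824 to 151651208), showed the largest difference, at 6.13, 6.45 and 4.23 NRPKM in WT proliferative and 10.6, 10.6 and 13.2 in *aadd*, with 13.1, 8.57 and 6.82 in WT resting and 5.72, 14.4 and 7.55 in WT hypertrophic (log2 FC 1.03, SE 0.22, 95% interval 0.50 to 1.57, adjusted *P* = 0.0629). *Cdc7*, the kinase that fires origins, was at 9.66, 6.46 and 7.71 in WT proliferative and 14.2, 12.2 and 12.1 in *aadd*, with 15.2, 12.2 and 6.94 in WT resting and 9.84, 9.88 and 7.91 in WT hypertrophic. For both genes every *aadd* value lay above every proliferative value, and the same held for *Prim2*. The log2 FC was 0.70 (SE 0.21, adjusted *P* = 0.129) for *Cdc7*, 0.59 (SE 0.24, adjusted *P* = 0.244) for *Prim2* and 0.79 (SE 0.30, adjusted *P* = 0.219) for *Mcm7*, whose values overlapped. These 4 met both criteria (8.7% of the set, 15.8% of all genes), as many had an unadjusted *P* of up to 0.05 (19.2% of all genes), and none had an adjusted *P* below 0.05 (3.0%; limma). The libraries did not overlap for 4 members that were higher in *aadd* and 1 that was lower (*Rpa1*), against 25.6% of all genes.

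In this comparison the count moved with the libraries, being 2 without WT proliferative replicate 2, WT proliferative replicate 3 or *aadd* replicate 3 (14.3%, 15.4% and 14.0% of all genes). The median log2 FC was 0.09 without WT proliferative replicate 3, 0.14 without *aadd* replicate 3 or *aadd* replicate 1, and 0.32 without WT proliferative replicate 1. *Prim2* met both criteria under 1 of its 12 alternatives, *Mcm7* under 7, *Cdc7* under 11 and *Rfc3* under all 12. By the median over libraries, *Rfc3* was among the members with the fewest estimated reads.

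Against WT hypertrophic chondrocytes, 38 of 46 genes had the higher mean in *aadd*, with a median log2 FC of 0.27 (all genes, 0.01), and it was again the polymerase and primase genes that led, with 8 of 8 higher and a median of 0.52. The hypertrophic libraries are those already set against WT resting. The log2 FC was 0.92 (SE 0.28, adjusted *P* = 0.105) for *Prim1*, 0.90 (SE 0.31, adjusted *P* = 0.134) for *Pole* and 0.73 (SE 0.27, adjusted *P* = 0.161) for *Pola1*. These 3 met both criteria, and their *aadd* values lay above all hypertrophic values. They made up 6.52% of the set, against 21.9% of all genes. With *Cdc7*, 4 members had an unadjusted *P* of up to 0.05 (25.0% of all genes), none an adjusted *P* below 0.05 (7.64%; limma), and 6 had libraries that did not overlap, all higher in *aadd* (30.9%). Without hypertrophic replicate 1 the median was 0.06, 26 genes had the higher mean and *Prim1* alone met both criteria, at 0.66 with an adjusted *P* of 0.0714, against 34.2% of all genes. Without hypertrophic replicate 2 the median was 0.48 and 10 members met them, or 21.7% of the set against 18.2% of all genes. The count was 1 without hypertrophic replicate 3, *aadd* replicate 1 or *aadd* replicate 3, where 16.4%, 18.2% and 18.5% of all genes met them.

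Across the 4 groups at once, the limma *F* test gave no member an adjusted *P* below 0.05, against 13.8% of all genes. The lowest were *Pole* at 0.0567 and *Prim1* at 0.0727, and with *Pola1* and *Mcm7* they were the 4 members with an unadjusted *P* of up to 0.05 (8.7% of the set, 31.0% of all genes). By the order of the group means, WT resting was the highest for 26 members, *aadd* for 12 and WT proliferative and WT hypertrophic for 4 each, while the lowest was WT hypertrophic for 25, WT proliferative for 16, *aadd* for 3 and WT resting for 2. The median group mean was 19.8 NRPKM in WT resting, 19.6 in *aadd*, 18.5 in WT proliferative and 16.1 in WT hypertrophic. Hypertrophic replicate 1 alone held the lowest of the 12 values for 26 members. Without it the median log2 FC of WT hypertrophic was -0.05 against WT resting and 0.07 against WT proliferative. The order of group means was not computed without it. The *F* test without it gave no member an adjusted *P* below 0.05, while 3074 of 10936 genes passed.

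Of the 6 genes that license origins, *Orc1* alone had libraries that did not overlap, lower in WT proliferative (-0.46) and in WT hypertrophic (-0.37, log2 FC) than in WT resting. It is named after its values were seen, as is *Gmnn*. *Orc6*, the most abundant of them, was at 29.3, 16.8 and 20.5 NRPKM in WT resting, 23.8, 27.6 and 11.8 in WT proliferative, 17.4, 22.1 and 13.5 in WT hypertrophic and 23.2, 20.3 and 26.7 in *aadd*. Its groups overlapped. *Gmnn*, which encodes the licensing inhibitor geminin, spanned the widest range of the set, from 0.704 in WT proliferative replicate 3 to 14.5 in WT proliferative replicate 1, both in the same group. *Gins2* was at 44.4, 35.7 and 34.9 in WT resting, 29.6, 30.2 and 22.9 in WT proliferative, 19.03, 52.8 and 36.2 in WT hypertrophic and 41.3, 23.3 and 38.6 in *aadd*. Its 3 proliferative values lay below its 3 resting values, and hypertrophic replicates 1 and 2 held its lowest and highest values.

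None of the 3 single-strand binding genes and 2 lagging-strand genes had an unadjusted *P* of up to 0.05 in any of the 6 comparisons. *Rpa2* was at 26.7, 19.2 and 14.9 NRPKM in WT resting, 20.6, 19.2 and 15.2 in WT proliferative, 14.97, 17.3 and 15.4 in WT hypertrophic and 24.3, 18.4 and 22.5 in *aadd*. Every *aadd* value of *Rpa2* lay just above every hypertrophic value. *Lig1*, the ligase that joins Okazaki fragments, was at 42.7, 31.3 and 27.7, 32.3, 23.9 and 19.7, 14.5, 29.1 and 23.02 and 38.7, 26.5 and 27.8 in the same order. The groups overlapped in *Lig1* in all 6 comparisons, with its highest value in WT resting replicate 1 and its lowest in hypertrophic replicate 1. Against WT resting its log2 FC in WT hypertrophic was -0.64 (SE 0.31, adjusted *P* = 0.249).

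*Tyms*, which makes thymidylate, was the steadiest gene of the set, with its highest library 1.42 times its lowest. Its NRPKM was 36.2, 31.3 and 30.8 in WT resting, 38.5, 36.98 and 32.4 in WT proliferative, 31.7, 34.4 and 30.4 in WT hypertrophic and 32.6, 37.1 and 43.3 in *aadd*. In hypertrophic replicate 1 it stood at the level of the other libraries, while *Tk1*, the salvage kinase for thymidine (named after its values were seen), was at 14.6, 42.4 and 24.2 in the hypertrophic libraries against 42.3, 38.1 and 34.1 in WT resting. *Dnmt1*, the maintenance DNA methyltransferase, was at 41.1, 35.8 and 34.3 in WT resting, 35.1, 21.3 and 24.5 in WT proliferative, 18.9, 34.6 and 27.4 in WT hypertrophic and 36.9, 29.5 and 28.7 in *aadd*. Its proliferative and hypertrophic libraries reached into the resting range through 1 library each, replicates 1 and 2.

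Genes of the same pathway outside the set gave a picture that was alike in part. Of the 31 other replication genes, 30 were tested, and none met both criteria in the 3 comparisons between WT compartments. The median log2 FC was -0.10 for proliferative against resting, -0.27 for hypertrophic against proliferative and -0.32 for hypertrophic against resting. In the same order 5.53%, 9.67% and 13.0% of all genes met both criteria. In *aadd* against WT hypertrophic 4 were higher by both criteria (*Dut*, *Mcm9*, *Mcmbp* and *Wdhd1*) and 1 lower (*Pold4*), where 21.9% of all genes met them. Against WT proliferative 1 was higher in *aadd* (*Orc5*, beside 15.8% of all genes), and against WT resting none met them (6.56% of all genes). Of 16 mitosis genes tested, none met both criteria between WT compartments, beside the same 5.53%, 9.67% and 13.0% of all genes. All 16 had the lower mean in WT hypertrophic than in WT resting (median -0.42). By both criteria 2 were higher in *aadd* than in WT proliferative (*Cenpf* and *Ndc80*) and 2 than in WT hypertrophic (*Cenpf* and *Nusap1*). The shares of all genes there were the same 15.8% and 21.9%. None of these had an adjusted *P* below 0.05. In WT hypertrophic against WT proliferative, 9 of the other replication genes had the higher mean and 21 the lower. Of the mitosis genes 2 were higher and 14 lower there (median -0.26). The set itself leaned less in that comparison, with a median of -0.05, 18 higher and 28 lower. The hypertrophic libraries were split in both lists. The median deviation of the other replication genes was -0.43, 0.17 and -0.30 in hypertrophic replicates 1, 2 and 3. In WT resting it was 0.40, -0.02 and -0.05. For the mitosis genes it was -0.71, 0.28 and -0.35 in WT hypertrophic and 0.32, 0.05 and 0.03 in WT resting. Hypertrophic replicate 2 was thus above resting replicates 2 and 3 in both lists.

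Among 12 tested genes of E2F factors and pocket proteins, *Rb1*, the retinoblastoma gene, was the exception. Its NRPKM was 4.81, 6.61 and 6.18 in WT resting, 11.8, 12.8 and 8.80 in WT proliferative, 32.5, 19.9 and 17.04 in WT hypertrophic and 6.77, 10.8 and 9.06 in *aadd*. The hypertrophic values lay above those of every other group, with the highest in replicate 1. *Rb1* rose by a log2 FC of 1.92 from WT resting to WT hypertrophic (SE 0.29, adjusted *P* = 0.0189, limma; 6.36% of all genes had an adjusted *P* below 0.05) and was 1.01 higher in WT hypertrophic than in WT proliferative (adjusted *P* = 0.183). Both criteria were also met by *Rbl2*, higher in *aadd* than in WT proliferative. Against WT hypertrophic they were met by *E2f8*, higher in *aadd*, and *Rb1*, lower in *aadd*. That makes 1 of 12 and 2 of 12 in these comparisons, beside 15.8% and 21.9% of all genes. No other gene of the 3 lists had an adjusted *P* below 0.05 in any of the 6 comparisons.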

How the data were processed

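RNA (20 ng total per sample) was amplified with the Ovation RNA-Seq System V2, tagmented with Nextera and sequenced on an Illumina HiSeq. The authors aligned reads to mm10 (TopHat is named in the submitters' processing notes), removed low-quality, multi-aligned and duplicate reads, and deposited normalised RPKM values (NRPKM) made in GeneSpring 12.6.1. Any further scaling between libraries and the use of strand are not given in the sources used here. The deposited values are no counts, so limma 3.58.1 (R 4.3.3) was run on log2(NRPKM + 0.1) for genes that 3 or more libraries held at 5 NRPKM or above, with the 6 libraries of each pair of groups in a fit. FC understates the change of low genes on this scale. The criteria were an unadjusted *P* of up to 0.05 with an FC of at least 2 between WT compartments or 1.5 against *aadd*. Adjusted *P* values (Benjamini-Hochberg) and 95% intervals came from the same fits, and an *F* test covered all 4 groups. The fit was tested on simulated data.

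Members and gene lists were chosen with earlier results of these data known. Named in full were *Mcm2* to *Mcm7*, the most abundant member of each of 9 roles, and members that met both criteria without overlap of libraries or against the direction of most. Alternatives were a pseudocount of 1, no filter, median-of-ratios and quantile scaling, all libraries in a fit, a replicate block and each library left out. Same-numbered WT resting and proliferative libraries deviated together (r = 0.28, 0.18 and 0.20), which was taken as pairing, while in the other 5 comparisons not every r passed 0.1. The 12 members whose locus overlaps another row (*Mcm7*, *Orc2*, *Gins1*, *Gins2*, *Rfc4*, *Pola1*, *Prim2*, *Pold2*, *Lig1*, *Fen1*, *Tk1* and *Chaf1a*) may share reads with it. Depth was estimated from values of genes with 1 or few reads. Positions are those of the deposited table.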

Additional observations from a re-analysis of the deposited data

How the results depend on the processing

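Across the 13 counts of members, most alternatives gave the main count. Those that met both criteria ran, with 1 library left out, from 0 to 2 in WT proliferative against WT resting, 0 to 1 in WT hypertrophic against WT proliferative, 0 to 5 in WT hypertrophic against WT resting, 0 to 1 in *aadd* against WT resting, 2 to 5 against WT proliferative and 1 to 10 against WT hypertrophic. Members with an adjusted *P* below 0.05 ran from 0 to 1 in WT hypertrophic against either WT compartment and over the 4 groups, and stayed at 0 otherwise. Against WT proliferative and WT resting the 1 member came without hypertrophic replicate 1, where 17.4% and 24.2% of all genes passed. Over the 4 groups it came without hypertrophic replicate 2, where 783 of 10936 genes passed. With no filter, 2 in place of 4 members met both criteria in *aadd* against WT proliferative, as did 11.2% of all genes. In *aadd* against WT proliferative with a pseudocount of 1, 1 member reached an adjusted *P* below 0.05 (*Rfc3*, 0.049, limma), as did 4.53% of all genes. In WT hypertrophic against WT resting it was 1 (*Pole*) with quantile normalization, against 6.53% of all genes. With all 12 libraries in one fit it was 2 there (*Pole* and *Prim1*), against 14.7%. In that fit it was 1 (*Prim1*) in *aadd* against WT hypertrophic, against 14.1%. Over the 4 groups it was 1 (*Pole*) with a pseudocount of 1, 1 with median-of-ratios scaling and 2 (*Pole* and *Prim1*) with quantile normalization. Of all 10936 genes, 1678, 1524 and 1529 passed in these settings. Members with an unadjusted *P* of up to 0.05 numbered 2 in place of 7 with no filter in WT proliferative against WT resting (10.3% of all genes). With quantile normalization they numbered 8 in place of 4 in WT hypertrophic against WT resting, or 17.4% of the set against 27.2% of all genes. The cause was not tested.

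The replicate block left every count of members past both criteria or an adjusted *P* as it was or within 1.5 times, at 0, 0, 1, 0, 3 and 2 for both criteria in the order above and 0 throughout for the adjusted *P*. With the block, 6.14%, 9.38%, 13.4%, 7.21%, 15.7% and 19.9% of all genes met both criteria. For the 8 named differences, 67 of 96 alternatives kept the call, 29 lost it and 0 reversed it. Median log2 FC of the set kept its sign under both rescalings in all 6 comparisons, while the number of members with the higher mean in *aadd* than in WT proliferative fell from 40 to 34 and 31. A leave-one-out fit leaves 2 libraries in an arm. The fewest estimated reads, by the median over libraries, were those of *Gmnn*, *Gins1*, *Rfc3*, *Fen1* and *Rpa3*, and in comparisons with WT hypertrophic libraries the 95% intervals of most members reached a 2-fold difference.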
